A study of Homo sapiens with 4 samples.

Results

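Metallothioneins are small cysteine-rich proteins that bind zinc, copper and cadmium. The genes described here are 5 metallothioneins (MT2A, MT1X, MT1E, MT1F and MT1G), MTF1, which encodes the zinc-sensing transcription factor of the family, and SLC30A1, which encodes the zinc exporter ZnT1 of the plasma membrane. The 7 genes were chosen by symbol, and each matched 1 of the 60671 Ensembl gene identifiers in the deposited tables. In each of 2 prostate carcinoma cell lines, 22RV1 and PC3, RNA was sequenced from cells with a control shRNA (shCON) and from cells with an shRNA against the RNA helicase DDX52 (shDDX52), to ask which transcripts differ when DDX52 is lowered. The shRNAs were delivered by lentivirus, 1 sequence for each, and infected cells were selected with puromycin, so all 4 libraries come from infected and selected cells. With 1 library per condition there was no replicate check, no p-value was computed, and every difference given here is between 2 libraries. In such bulk RNA, fewer cells expressing a gene and less RNA per cell cannot be told apart.

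Zinc entering the cell activates MTF1, which binds metal response elements (MREs) before the metallothionein genes and SLC30A1 and raises their transcription. Metallothioneins then bind the free metal, and ZnT1 carries zinc out. Normal prostate epithelium is known for a very high zinc content, which is lower in prostate carcinoma. Metallothionein genes also respond to glucocorticoids and to oxidative stress.

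The 5 metallothionein genes lie together on chromosome 16 in GENCODE 29 (GRCh38), within 75998 bases from 56608199 to 56684196. Of the 16 annotated genes in this stretch, 14 are metallothionein genes or pseudogenes, and 8 of these 14 had a value above 0 in any library. MT1G is on the minus strand and the other 4 are on the plus strand. MTF1 (chr1:37809567-37859620) and SLC30A1 (chr1:211571568-211578742) lie on chromosome 1, both on its minus strand. The main mRNA of each metallothionein gene has 3 exons and is 406 to 786 bases long, against 7972 bases for MTF1 and 5474 for SLC30A1. The coding sequences show how alike the 5 genes are, which bears on how reads are assigned to them. They are printed from the start to the stop codon on the coding strand, from GENCODE 29 transcripts, with bases that differ from MT2A in capitals.
MT2A: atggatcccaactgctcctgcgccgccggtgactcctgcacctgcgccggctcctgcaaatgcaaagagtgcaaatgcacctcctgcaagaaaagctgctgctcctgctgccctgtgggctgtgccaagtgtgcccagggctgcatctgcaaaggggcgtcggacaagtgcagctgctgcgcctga
MT1X: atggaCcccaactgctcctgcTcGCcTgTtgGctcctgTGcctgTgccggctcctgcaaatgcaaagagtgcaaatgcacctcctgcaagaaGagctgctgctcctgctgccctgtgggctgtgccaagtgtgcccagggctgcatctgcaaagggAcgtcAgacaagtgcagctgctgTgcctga
MT1E: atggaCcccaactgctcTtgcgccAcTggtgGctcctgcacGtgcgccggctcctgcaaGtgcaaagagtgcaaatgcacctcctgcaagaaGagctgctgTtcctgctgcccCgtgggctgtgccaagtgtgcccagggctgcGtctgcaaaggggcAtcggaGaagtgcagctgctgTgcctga
MT1F: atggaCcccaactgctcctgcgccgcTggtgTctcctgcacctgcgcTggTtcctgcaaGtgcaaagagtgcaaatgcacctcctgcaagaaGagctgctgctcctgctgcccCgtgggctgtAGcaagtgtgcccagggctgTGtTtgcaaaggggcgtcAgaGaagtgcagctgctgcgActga
MT1G: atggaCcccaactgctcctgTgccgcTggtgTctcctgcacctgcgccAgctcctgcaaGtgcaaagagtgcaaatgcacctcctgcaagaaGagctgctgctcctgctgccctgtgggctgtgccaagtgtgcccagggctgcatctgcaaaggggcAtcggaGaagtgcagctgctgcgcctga
Each holds 61 codons before the stop, of which 20 encode cysteine. Identity to MT2A was 92.5% for MT1X and MT1E, 91.4% for MT1F and 95.2% for MT1G. Over the whole mRNA, windows of 50 bases that also occur in transcripts of other genes made up 4.88% of MT2A, 5.34% of MT1E, 3.59% of MT1F, 20.2% of MT1G and 45.1% of MT1X. With windows of 100 bases the share was 19.1% for MT1X, all of it shared with the overlapping transcript AC026461.1, and 0% for the other 4. AC026461.1 was listed at 0 in all 4 libraries. The read length and the treatment of reads with several matches are not given in the sources used here, so single values of MT1X and MT1G are the least certain, and the sum over the 5 genes is given beside them.

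Promoters are shown for MT2A and MT1X, the most abundant members in PC3 cells, for SLC30A1, and for the family gene MT1H, which was listed at 0 in every library. Each is the 250 bases before the RefSeq start site on the gene's strand (GRCh38.p14), with the MRE core in capitals. GENCODE 29 starts MT2A, MT1X and SLC30A1 elsewhere. There MT2A begins at 56608199, before the stretch shown, so this stretch lies inside the GENCODE gene. MT1X begins at 56682424, within its stretch. SLC30A1, on the minus strand, begins at 211578742, downstream of its stretch. Counts and distances below refer to the RefSeq starts only. The core was searched as TGCACNC and TGCGCNC on both strands.
MT2A, chr16:56608334-56608583, plus strand: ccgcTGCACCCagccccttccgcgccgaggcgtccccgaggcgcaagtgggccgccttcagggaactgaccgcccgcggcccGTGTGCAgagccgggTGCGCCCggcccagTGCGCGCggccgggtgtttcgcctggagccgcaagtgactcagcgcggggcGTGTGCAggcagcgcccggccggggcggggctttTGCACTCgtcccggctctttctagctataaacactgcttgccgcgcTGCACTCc
MT1X, chr16:56682220-56682469, plus strand: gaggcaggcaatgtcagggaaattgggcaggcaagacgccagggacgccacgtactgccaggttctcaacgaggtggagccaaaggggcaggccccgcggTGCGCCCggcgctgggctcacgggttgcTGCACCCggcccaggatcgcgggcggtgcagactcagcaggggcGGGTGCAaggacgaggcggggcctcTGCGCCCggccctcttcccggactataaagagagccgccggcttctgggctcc
SLC30A1, chr1:211579162-211579411, minus strand: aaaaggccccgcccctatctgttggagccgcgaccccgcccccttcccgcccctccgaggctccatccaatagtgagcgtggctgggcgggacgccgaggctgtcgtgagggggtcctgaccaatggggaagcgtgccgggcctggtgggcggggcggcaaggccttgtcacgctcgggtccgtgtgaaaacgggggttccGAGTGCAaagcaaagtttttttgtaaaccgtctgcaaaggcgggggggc
MT1H, chr16:56669564-56669813, plus strand: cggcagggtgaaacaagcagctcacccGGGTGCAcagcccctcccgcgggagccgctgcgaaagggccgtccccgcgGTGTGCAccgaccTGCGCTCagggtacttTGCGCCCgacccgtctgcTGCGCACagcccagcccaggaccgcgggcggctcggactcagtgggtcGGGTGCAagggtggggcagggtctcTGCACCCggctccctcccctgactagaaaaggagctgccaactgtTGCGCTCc
The MT2A promoter held 7 cores, the MT1X promoter 4 and the SLC30A1 promoter 1. The same stretch before MTF1 held 0. Of all 35116 promoters in the table, 24.8% held at least 1 core and 0.370% at least 4. MT1H held 8 cores, more than MT2A, and was at 0 in all 4 libraries. A TATA box (TATAAA) stood 29 bases before the start of MT2A and 30 bases before that of MT1X, and this motif was present in 10.7% of all promoters. The AP-1 motif TGACTCA was found in the MT2A promoter and not in those of MT1X, SLC30A1 or MTF1, and 4.20% of all promoters held it. Entries for MT1E, MT1F and MT1G were not in the table.

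The values are TPM, the share of a library's transcripts that come from a gene, corrected for transcript length, so levels can be compared between genes within a library. How many reads stand behind a TPM value cannot be told, and no interval is given. Listed TPM summed to 984448 to 990860 per library, and 13504 to 13738 genes reached 1 TPM. Ribosomal RNA genes took up 1.21% and 0.0872% of the listed TPM in 22RV1, control first, and 0.0923% and 3.13% in PC3. The share of mitochondrially encoded genes was larger with shDDX52 in both lines, at 13.0% against 9.81% for 22RV1 and 10.3% against 8.10% for PC3. The part of these shares in the results was not tested beyond the other scalings. DDX52 itself was at 4.88 and 1.2 TPM in 22RV1, control first, which is 24.6% of the control, and at 9.2 and 2.07 TPM in PC3, which is 22.5%. The labels were checked against the luminal prostate genes KLK2 (32.6 and 23.05 TPM) and KLK3 (6.84 and 4.51 TPM) in 22RV1, which were listed at 0 in both PC3 libraries. In PC3, 5 genes typical of these cells summed to 907 to 967 TPM, against 14.1 to 26.9 TPM in 22RV1. CD44 made up most of the PC3 sum (571 and 664 TPM, control first). VIM was closer between the lines, at 12.61 and 66.68 TPM in PC3 against 8.08 and 5.57 TPM in 22RV1. S100A2 was 210 and 40.8 TPM in PC3 against 1.29 and 1.16 TPM in 22RV1. CAV1 (162 and 130 TPM in PC3) and KRT6A (10.87 and 5.55 TPM in PC3) were below 1 TPM in 22RV1. Of 6 markers of immune, endothelial and fibroblast cells, 2 or 3 reached 1 TPM in a library, with sums of 7.39 to 11.8 TPM in 22RV1 and 44.7 to 52.2 TPM in PC3. CD68 and COL1A1 together made up most of each sum, while PTPRC was listed at 0 in both 22RV1 libraries and was below 1 TPM in PC3. Their part in the results was not tested.

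In control cells, the metallothionein sum was 939 TPM in 22RV1 and 3562 TPM in PC3, which is 0.0950% and 0.360% of the listed TPM. The sum was 3.79-fold higher in PC3 shCON. This difference rested on MT2A, since without it the other 4 summed to 409 TPM in 22RV1 and 151 TPM in PC3, 2.71-fold lower in PC3. MT2A, the major human metallothionein, was at 530 TPM in the 22RV1 control and 3411 TPM in the PC3 control, 6.44-fold higher in PC3. Of 15727 genes used in this comparison of the control libraries, 19.9% were at least 2-fold higher in PC3 and 21.3% at least 2-fold lower. MT2A ranked 283 among all genes of the 22RV1 library and 40 in PC3. MT1X was 149 and 137 TPM and MT1F 17.8 and 13.98 TPM, 22RV1 first, and these 2 genes were 1.09-fold and 1.27-fold higher in 22RV1. MT1E was 121 TPM and MT1G was also 121 TPM in 22RV1 shCON, and both were listed at 0 in PC3 shCON and in PC3 shDDX52. Of 2384 genes with at least 50 TPM in both 22RV1 libraries, 12 were listed at 0 in both PC3 libraries, and MT1E and MT1G are 2 of these 12. The tables of the 2 cell lines were deposited separately, with 1 library per condition, so the spread of any of these levels is unknown.

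**Figure D1:**
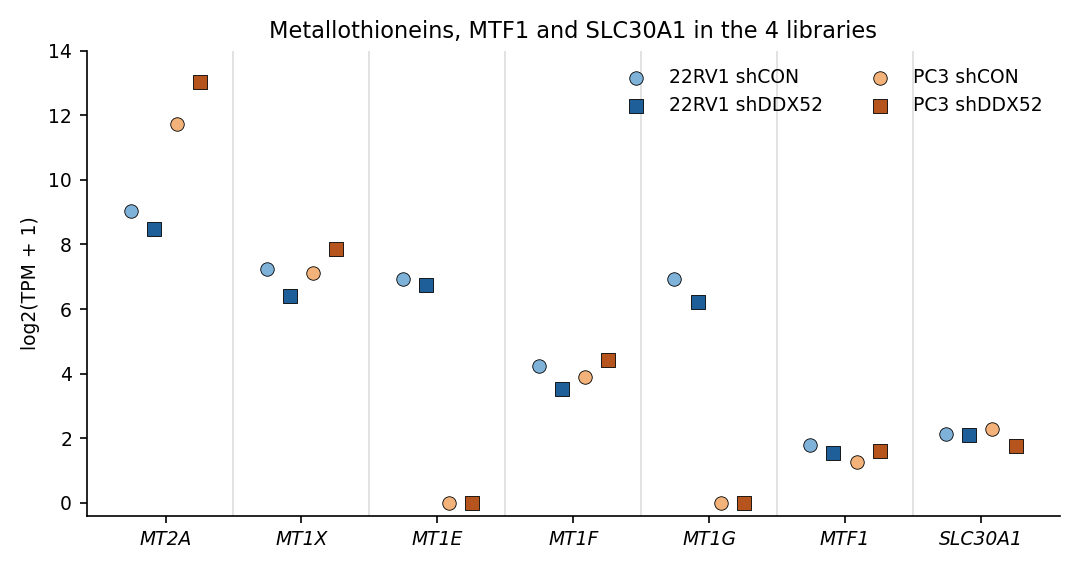
Levels of the 7 genes in the 4 libraries, as log2(TPM + 1), with 1 point per library (circles shCON, squares shDDX52, blue 22RV1, orange PC3). MT2A, MT1X, MT1F and MTF1 are lower with shDDX52 in 22RV1 and higher in PC3, and MT1E and MT1G sit at 0 in both PC3 libraries.

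In 22RV1 cells, all 5 metallothioneins were lower with shDDX52. The sum was 939 TPM with shCON. With shDDX52 it was 631 TPM, or 67.3% of the control. Differences are given as the log2 ratio, log2((TPM shDDX52 + 1) / (TPM shCON + 1)), for genes that reached 1 TPM in one library or both of a cell line, and the ratio of the sum was −0.57. The 4 genes other than MT2A summed to 67.3% of the control as well (409 against 275 TPM). MT1X was 149 and 84.1 TPM, control first, the lowest log2 ratio of the 5 (−0.82). MT1G was 121 and 73.8 TPM, with a log2 ratio of −0.70. MT1F, the least abundant of the 5, was 17.8 and 10.5 TPM, with a log2 ratio of −0.71. These 3 genes were each at 56.4% to 61.1% of the control library. MT2A was 530 and 356 TPM, with a log2 ratio of −0.57. MT1E was 121 and 107 TPM, with a log2 ratio of −0.18, the smallest difference of the 5. The share of MT1E in the sum was 12.9% with shCON and 16.9% with shDDX52, while that of MT2A was 56.4% in both.

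None of the 7 genes reached a 2-fold difference in 22RV1, where 2.86% of the 14438 genes used were lower by at least 2-fold and 2.24% were higher. All 7 were below 0, as were 58.8% of all genes, while 40.9% were above 0. The median log2 ratio of all genes was −0.08. The median of the 5 metallothioneins was −0.70. MT1X lay below 95.9% of all genes, MT1F below 94.4%, MT1G below 94.3%, MT2A below 91.1% and MT1E below 63.9%. At a threshold of 1.5-fold, chosen after the values were seen, MT1X, MT1F and MT1G were lower, against 8.47% of all genes, and 0 members were higher, against 5.61%.

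In PC3 cells, the 3 metallothioneins with a value above 0 were higher with shDDX52. The sum was 3562 TPM in the control and 8608 TPM with shDDX52, a 2.42-fold difference and a log2 ratio of 1.27. MT2A was 3411 TPM in the control and 8356 TPM with shDDX52, 2.45-fold higher, with a log2 ratio of 1.29. It ranked 40 in the control library and 7 in the shDDX52 library, and alone made up 95.8% and 97.1% of the sum. MT1X was 137 and 231 TPM, with a log2 ratio of 0.75. MT1F was 13.98 and 20.3 TPM, with a log2 ratio of 0.51. The 3 genes thus differed in the same direction and in the order of their levels, and without MT2A the rest of the sum was 1.67-fold higher (151 against 252 TPM). MT2A was 24.9 times the level of MT1X in PC3 shCON and 36.1 times in PC3 shDDX52, against 3.55 and 4.24 times in 22RV1.

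**Figure D2:**
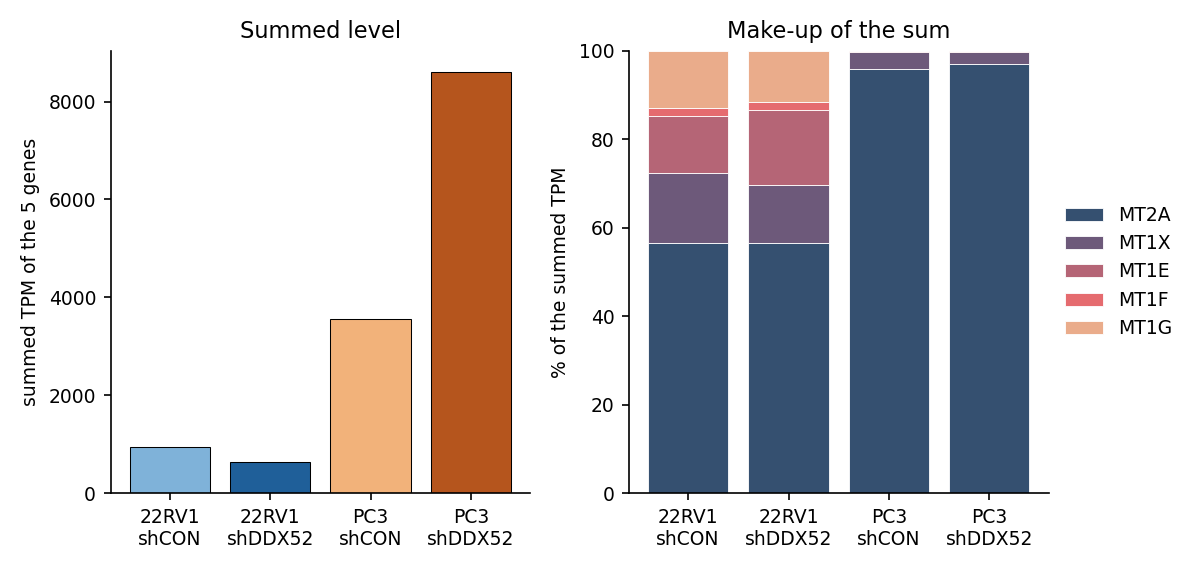
Left, the summed TPM of the 5 metallothionein genes in each library (939, 631, 3562 and 8608). Right, the percentage of that sum held by each gene, where MT2A holds 56.4% in each 22RV1 library, 95.8% in PC3 shCON and 97.1% in PC3 shDDX52.

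MT2A was the only one of the 5 members used in PC3 to reach a 2-fold difference, and 2.86% of the 14262 genes used were at least 2-fold higher there. At least 2-fold lower were 0 members and 3.44% of all genes. Of the 5 used, MT2A, MT1X, MT1F and MTF1 were above 0, as were 46.3% of all genes, and SLC30A1 was below 0, as were 53.5%. The median of all genes was −0.04. MT2A lay above 98.5% of all genes, MT1X above 94.8% and MT1F above 88.6%. MT2A and MT1X were higher by at least 1.5-fold, against 8.95% of all genes, and 0 members were lower by as much, against 9.84%. The larger share of rRNA genes in PC3 shDDX52 stands beside these values. When only nuclear protein-coding genes entered the TPM total, the log2 ratio of MT2A was 1.42. That total leaves out mitochondrially encoded and other noncoding genes as well as rRNA genes. With a total that left out mitochondrially encoded genes and the 20 highest genes, the log2 ratio of MT2A was 1.30.

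**Figure D3:**
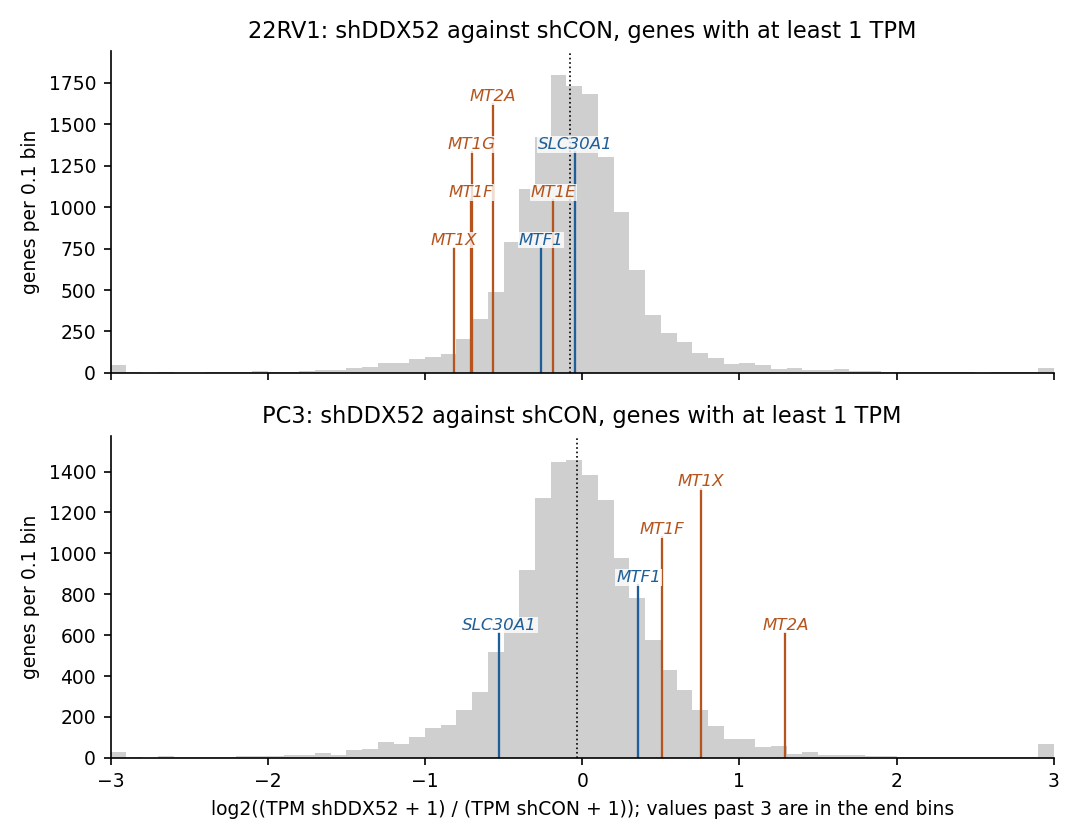
Histograms of the log2 ratio of all genes with at least 1 TPM in 22RV1 (top) and PC3 (bottom), in bins of 0.1, with values beyond 3 in the end bins. Vertical lines mark the metallothioneins (orange), MTF1 and SLC30A1 (blue), and the dotted line the median of all genes, with the metallothioneins left of it in 22RV1 and right of it in PC3.

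Across the libraries, MT2A was highest in PC3 shDDX52, then in the PC3 control, the 22RV1 control and 22RV1 shDDX52. MT1X and MT1F followed another order, with PC3 shDDX52 first, then the 22RV1 control, the PC3 control and 22RV1 shDDX52. Without replicates, whether neighbours in these orders differ beyond their spread is unknown. MT2A, MT1X, MT1F and MTF1, 4 of the 5 members used in both cell lines, were lower in 22RV1 and higher in PC3 with shDDX52, as were 27.4% of the 12175 genes used in both. MT1X was the only member at least 1.5-fold different in both lines in this way, as were 1.15% of those genes.

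The regulator and the exporter were at low levels. In 22RV1, MTF1 was 2.45 and 1.88 TPM, control first, and in PC3 it was 1.38 and 2.05 TPM. Its log2 ratios were −0.26 and 0.36, the same signs as the metallothioneins, and with a pseudocount of 0.1 in place of 1 they were −0.36 and 0.54. SLC30A1 was 3.37 and 3.24 TPM in 22RV1, shCON first, and 3.84 and 2.36 TPM in PC3. Its log2 ratio in 22RV1 was −0.04, which changed sign under other scalings, up to 0.03. In PC3 it was −0.53, opposite in sign to that of the metallothioneins. SLC30A1 lay below 88.1% of all genes in PC3.

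Of the other 7 metallothionein genes, MT1B, MT1H, MT1HL1, MT1M and MT4 were listed at 0 in all libraries. MT3, known from brain, was 1.1 and 1.18 TPM in 22RV1, shCON first, and MT1A was 0.78 TPM in 22RV1 shCON and listed at 0 in the others. Of 9 pseudogenes, MT1L was 4.60 and 1.91 TPM in 22RV1, with a log2 ratio of −0.94, MT1JP was 0.89 TPM in 22RV1 shCON only, and the other 7 were at 0 in all libraries. In PC3 all 16 were listed at 0. Summing all 21 family genes and pseudogenes, a set chosen after the values were seen, gave −0.58 for 22RV1 and 1.27 for PC3, close to those of the 5 members.

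Among zinc transporters, 1 gene passed 2-fold. Of all genes used, 2.24% were at least 2-fold higher and 2.86% at least 2-fold lower in 22RV1. In PC3 these shares were 2.86% and 3.44%. The SLC30 proteins move zinc out of the cytosol, and of 9 genes other than SLC30A1, 4 were used in each line and 0 reached a 2-fold difference in either. Their median log2 ratio was −0.13 in 22RV1, with 2 above and 2 below 0 (0.02 without a filter and 0.07 with at least 5 TPM), and −0.31 in PC3, with all 4 below 0, as were 53.5% of all genes. SLC30A5, which loads zinc into the secretory pathway, was the most abundant, at 20.3 and 22.2 TPM in 22RV1 and 17.6 and 12.5 TPM in PC3. The SLC39 (ZIP) proteins bring zinc into the cytosol, and 11 of 14 genes were used in each line. Their median was −0.27 in 22RV1, where 8 were below 0, and −0.07 in PC3, where 6 were below 0, against 58.8% and 53.5% of all genes. The PC3 median turned to 0.06 with TPM over nuclear protein-coding genes and to 0.11 with centring on short transcripts. SLC39A4 was the most abundant, at 280 and 267 TPM in 22RV1 and 432 and 410 TPM in PC3. SLC39A8, which carries zinc and also cadmium and manganese, was the 1 gene of the list past 2-fold: its log2 ratio was −1.28 in PC3 (24.1 and 9.28 TPM) and −0.57 in 22RV1 (17.1 and 11.2 TPM).

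Of 6 genes flanking the metallothionein cluster, 5 were used, and all 5 were below 0 in 22RV1 (median −0.54) and above 0 in PC3 (median 0.18). Of all genes used in both lines, 27.4% had this pair of signs. HERPUD1, an endoplasmic reticulum stress gene, was 164 and 76.6 TPM in 22RV1, where its log2 ratio was −1.09, and it was at 29.8 and 44.2 TPM in PC3. NUP93, a nuclear pore gene and the most abundant of them in PC3, was 72.0 and 68.9 TPM in 22RV1 and 78.9 and 81.3 TPM in PC3. No flanking gene reached a 2-fold difference in PC3, where 2.86% of all genes were at least 2-fold higher and 3.44% lower. In 22RV1, 2.86% of all genes were at least 2-fold lower, as HERPUD1 was.

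Glucocorticoid and stress genes were counted because metallothioneins respond to both signals. Of 10 glucocorticoid-responsive genes, 8 were used in each line, with a median of −0.39 in 22RV1, where 6 were below 0, and of 0.25 in PC3, where 7 were above 0. The shares over all genes were 58.8% and 46.3%. FKBP5, a chaperone partner of steroid receptors, was 108 and 45.7 TPM in 22RV1, where its log2 ratio was −1.22. In PC3 it was 8.57 and 9.31 TPM. ERRFI1, a feedback inhibitor of EGFR, was the most abundant of the list in PC3, at 51.8 and 63.7 TPM. Of 14 oxidative and heat stress genes, TXNRD1, the cytosolic thioredoxin reductase, was the only one past 2-fold in either line. Its log2 ratio was 1.23 in PC3 (109 and 257 TPM) and −0.34 in 22RV1 (80.2 and 63.3 TPM). Of all genes, 2.86% were at least 2-fold higher and 3.44% lower in PC3, against 2.24% and 2.86% in 22RV1. HMOX1, a heme oxygenase gene induced by metals and oxidants, was 14.84 and 20.04 TPM in 22RV1 and 11.7 and 12.3 TPM in PC3. The list medians were −0.19 in 22RV1 and 0.04 in PC3. HSPB1, a small heat shock protein gene and the most abundant of the list, had log2 ratios of 0.07 and 0.04.

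**Figure D4:**
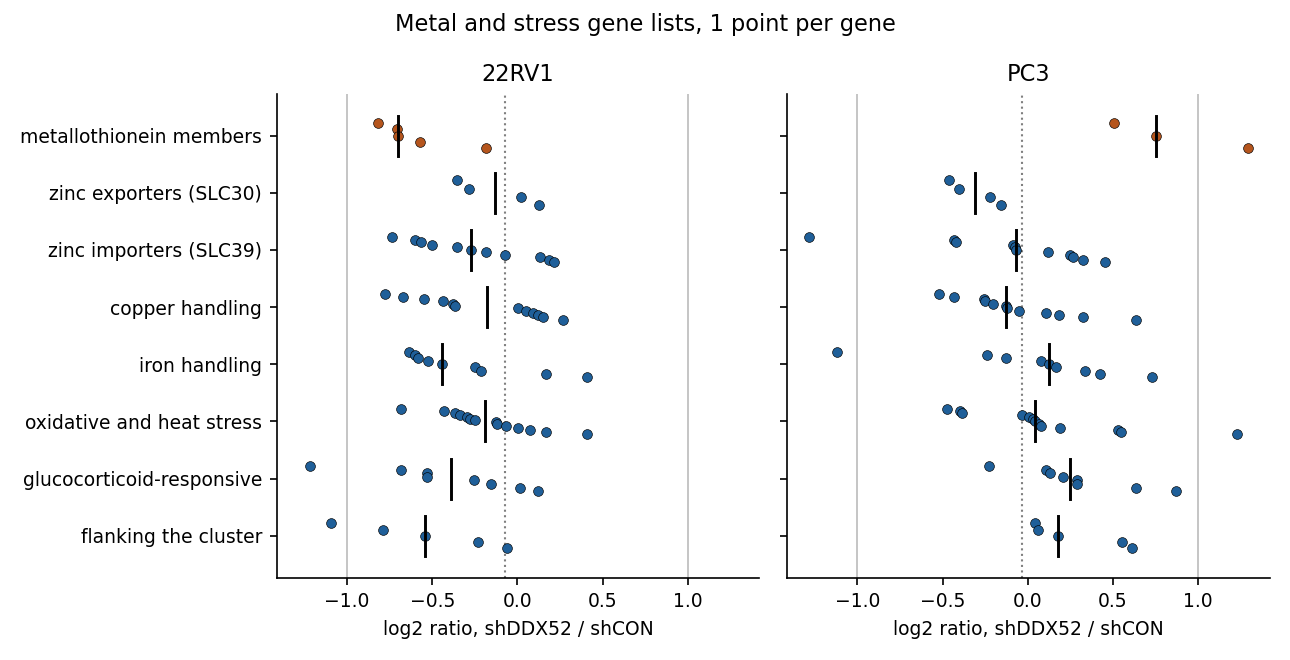
Log2 ratios of the genes used in 8 lists, 1 point per gene, in 22RV1 (left) and PC3 (right), with a black bar at each list's median, grey lines at 2-fold and a dotted line at the median of all genes. The metallothioneins, in orange, have medians of −0.70 in 22RV1 and 0.75 in PC3 (3 genes used), the furthest from 0 of the 8 lists shown. The members and lists were chosen with earlier results of these data known, so this order is a description only. The lists of other metallothioneins and of pseudogenes are not shown.

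The genes whose profile over the 4 libraries lay nearest to that of the metallothionein sum were NT5E, TGFBI, GSDME, MCAM and DEPP1. Nearness was the Euclidean distance of log2(TPM + 1) centred on each gene's mean. The candidates were 9889 protein-coding genes other than metallothioneins with at least 5 TPM in a library. The distances were 0.248 to 0.410, small because the nearest genes were picked, and the median of all 9889 was 3.06. NT5E, which encodes the surface enzyme CD73, was 0.75 and 0.28 TPM in 22RV1 and 7.42 and 17.3 TPM in PC3. TGFBI was 0.47 and 0.27 TPM in 22RV1 and 4.67 and 14.78 TPM in PC3. DEPP1 was 0.08 and 0.06 TPM in 22RV1 and 4.07 and 12.45 TPM in PC3. GSDME was 1.33 and 0.86 TPM in 22RV1 and 8.24 and 16.81 TPM in PC3. NT5E, TGFBI and DEPP1 were below 1 TPM in both 22RV1 libraries, where the pseudocount of 1 hides differences between them. MCAM, an adhesion molecule and the most abundant of the 5, was 9.34 and 7.22 TPM in 22RV1 and 53.9 and 126 TPM in PC3. With 4 points per gene this is a description of these libraries.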

How the data were processed

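RNA was sequenced from 22RV1 and PC3 cells with shCON or shDDX52, as 4 libraries, 1 per condition. The authors deposited TPM values for 60671 Ensembl genes in 1 table per cell line. The submitters' processing notes name CASAVA, HISAT2 and the build hg19, and the reads were mapped on the sequencing company's cloud platform. The quantification program, annotation release, read length and filters are not given in the sources used here. Of the identifiers, 58453 are in GENCODE 29 on GRCh38, from which positions and transcripts were taken. No coordinate of the deposited values was used. A table of gene names paired 42020 identifiers with a symbol.

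TPM is no read number, so no test of counts was made. Log2 ratios used a pseudocount of 1 TPM and kept genes that reached 1 TPM in one library or both of a cell line, and a gene was counted as changed at 2-fold on that scale. The pseudocount understates differences of low genes. The members and the 9 other lists were chosen with earlier results of these data known. Genes named were the members and DDX52, the list genes past 2-fold with at least 5 TPM (up to 2 in each direction), the most abundant gene of each list in each control library, the 5 genes nearest in profile, and genes of counts of 5 or fewer. MT1H, HMOX1 and FTL were named after their values were seen, and KLK2 and KLK3 stand for a longer marker list, of which 1 gene is not reported here. Promoters are RefSeq sequences (GRCh38.p14), of which 4 of the 7 members had an entry. Coding sequences were aligned globally (match 1, mismatch −1, gap opening −3, gap extension −1). The 2-fold counting was run on copies of the control libraries with known changes larger than 2-fold put in and no noise added. That run checks the code and does not measure the spread between libraries. The scripts ran in Python 3.11.15 with Biopython 1.88, pandas 2.3.3, numpy 2.4.6 and matplotlib 3.10.9. Other pseudocounts, filters, scalings and centrings were tried. The 1.5-fold threshold and the sums over other sets of family genes were added after seeing the data.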

Additional observations from a re-analysis of the deposited data

Results flagged for a closer look

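The metallothionein sum had opposite directions in the 2 cell lines, at −0.57 in 22RV1 and 1.27 in PC3 as log2 ratios. The same held for MT2A (−0.57 and 1.29), MT1X (−0.82 and 0.75), MT1F (−0.71 and 0.51) and MTF1 (−0.26 and 0.36), 22RV1 first. With 1 library per condition, none of these differences between the cell lines was tested.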

How the results depend on the processing

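The 67 results were recomputed 445 times: 433 values stayed within 1.5-fold of the value reported, 11 counts moved further and 1 ratio reversed. The cause was not tested. The log2 ratios of MT2A, MT1X, MT1F and MTF1 in both cell lines, and of MT1E and MT1G in 22RV1, kept their signs under each alternative run, with ranges for the sum of −0.58 to −0.50 in 22RV1 and of 0.74 to 1.44 in PC3, where the lowest is the sum without MT2A. That sum reversed the difference between the control libraries of the 2 lines, from 1.92 to −1.43. SLC30A1 changed sign in 22RV1 under 3 alternatives, so that 1 member was above 0 there when TPM was recomputed without the 20 highest genes and those encoded in mitochondria, when ratios were centred on all genes and when they were centred on genes with transcripts under 1000 bases. With at least 5 TPM, 0 members were below 0 in PC3. At 1.5-fold, 3 members were lower in 22RV1 and 2 higher in PC3. Among iron genes in PC3, 1 was at least 2-fold higher with a pseudocount of 0.1, and 0 were 2-fold lower with nuclear protein-coding scaling or with centring on short transcripts. Under these same 2 alternatives 1 glucocorticoid-responsive gene was 2-fold higher in PC3. Nuclear protein-coding scaling shifted the median of all genes by 0.12 in PC3. Of the list medians, 7 of 98 values changed sign, all of zinc or copper lists. No paired analysis was possible within a cell line, because a single library represents each condition there, and a model over both lines with the line as a block was not run. TPM keeps no depth, so the reads behind low values such as those of MTF1 and SLC30A1 are unknown.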

Other observations

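Genes that handle copper, a metal that metallothioneins bind, were also counted, as were iron handling genes. Of 13 copper handling genes, 12 were used and 0 reached a 2-fold difference in either line. Of all genes, 2.24% were at least 2-fold higher and 2.86% lower in 22RV1, and 2.86% and 3.44% in PC3. The copper medians were −0.18 in 22RV1 and −0.13 in PC3. They turned to 0.0035 in 22RV1 with at least 5 TPM. In PC3 they turned to 0.00038 and 0.05 with nuclear protein-coding scaling and with centring on short transcripts. SOD1, a copper and zinc enzyme, was the most abundant of them in 22RV1 at 369 and 284 TPM, shCON first, and was 411 and 356 TPM in PC3. ATOX1, a copper chaperone, was the most abundant in PC3 at 430 and 360 TPM, against 128 TPM in both 22RV1 libraries.

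Of 10 iron handling genes, 9 were used in each line, with medians of −0.44 in 22RV1, where 7 were below 0, and 0.13 in PC3, where 6 were above 0, against 58.8% and 46.3% of all genes. HMOX1 is in this list and in the stress list. FTH1, the ferritin heavy chain, was 3213 and 2113 TPM in 22RV1 and 9232 and 4241 TPM in PC3, with log2 ratios of −0.60 and −1.12. FTL, the light chain, was 914 and 672 TPM in 22RV1 and 1200 and 1015 TPM in PC3. Ferritin genes have many processed pseudogenes, and how reads shared with them were counted is not given in the sources used here.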
